A study of Mus musculus with 43 samples.

Results

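The genes described here are 8 precursors of neuropeptides other than neurotensin, *Pdyn*, *Tac1*, *Penk*, *Cck*, *Sst*, *Npy*, *Vip* and *Cartpt*, in neurons of the lateral nucleus accumbens that project to the ventral tegmental area (NAcLat→VTA cells). They were chosen by name, as 8 of the 35825 genes listed in the deposited tables, and were followed in all 43 cells of the study. Of the 8 genes, 7 passed the expression filter of the study, which asks for more than 15 CPM, the counts of a gene per 1000000 counts of the cell, in at least 5 cells and a mean above 4 CPM, and which 10802 genes passed. *Vip* did not pass. *Pdyn* and *Tac1* were carried by nearly every cell at high level, *Penk* and *Cck* by part of the cells, and *Sst*, *Npy* and *Cartpt* by few cells at levels that ranged widely.

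The cells came from mice on a regular diet (REG, 23 cells, labelled NORM) or a high-fat diet (HFD, 20 cells). By the methods of the study, the mice were C57BL/6J animals of both sexes, 6 to 8 weeks old when they entered experiments, and fluorescent beads injected into the ventral tegmental area marked the projecting cells in both groups. HFD mice could choose freely between standard chow and chow with 60% fat for at least 4 weeks. After a whole-cell recording, the cytosol was drawn into the patch pipette, amplified from polyadenylated RNA and sequenced as 1 library per cell. The labels also divide the cells into 2 batches: batch 1 held 13 REG and 5 HFD cells, and batch 2 held 10 REG and 15 HFD cells. The labels do not name the mouse of a cell, which leaves a single sample per diet. No test was therefore run between diets, and every interval covers counting error only.

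Neuropeptides are cut from larger precursor proteins, packed in dense core vesicles and released to act on G-protein-coupled receptors. In the striatum, direct-pathway medium spiny neurons, which carry the D1 dopamine receptor, classically make dynorphin from *Pdyn* and substance P from *Tac1*, while indirect-pathway neurons, which carry the D2 receptor, make enkephalin from *Penk*. *Sst* and *Npy* classically mark a class of striatal interneurons that also makes nitric oxide, *Vip* and *Cck* mark interneurons in cortex, and *Cartpt* encodes the cocaine- and amphetamine-regulated transcript peptide, which is abundant in the nucleus accumbens.

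The total count per cell had a median of 1426800, from 176961 to 16919600, and the counts came from amplified reads, which are not independent molecules. *Gad1*, which encodes a GABA-producing enzyme, was above 15 CPM in all 43 cells, and *Drd1*, the D1 receptor gene, in 40 cells. *Drd2*, the D2 receptor gene, was above 15 CPM in 3 cells. The 8 markers of medium spiny neurons had a summed level whose median was 3715 CPM over REG cells and 3221 CPM over HFD cells.

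The *Pdyn* gene lies on the minus strand at chr2:129686565-129699844, *Tac1* on the plus strand at chr6:7554879-7565834, *Penk* on the minus strand at chr4:4133531-4138819, *Cck* on the minus strand at chr9:121489824-121495694, *Sst* on the minus strand at chr16:23889573-23890958, *Npy* on the plus strand at chr6:49822710-49829507, *Vip* on the plus strand at chr10:5639218-5647617 and *Cartpt* on the minus strand at chr13:99898489-99901091 (GRCm38, the build of the deposited tables). *Penk* overlaps a transcript of the opposite strand, *A830012C17Rik*, and without strand information reads of the 2 cannot be told apart in the shared part. The other 7 genes overlap no annotated gene. Counts here are sums over all annotated transcripts of a gene, exons and untranslated regions included.

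Expression of several precursors follows neuronal activity through the cyclic AMP response element TGACGTCA, which reads the same on both strands. Promoters of 7 of the 8 genes were in the RefSeq table (GRCm38.p6), each from 250 bases before the start to 50 after it. The promoter of *Penk* was not in that table and was not searched. The whole element was found in the bases before the RefSeq starts of *Sst* and *Cartpt*. Before the starts it was found in 508 of the 32851 promoters in the table (1.55%). The 2 windows are shown because they place the same 8 letters, in capitals, at different distances from the RefSeq start, 40 bases before it in *Sst* and 104 in *Cartpt*. They are written 5′ to 3′ along each gene, and both lie on the minus strand, at chr16:23890874-23890903 and chr13:99900777-99900806. The gene spans given above, from GENCODE, begin further upstream than these RefSeq starts, so both windows lie inside those spans. A match of letters does not show that the site is bound.
Sst: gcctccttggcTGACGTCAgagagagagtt
Cartpt: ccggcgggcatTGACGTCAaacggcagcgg

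*Tac1*, the precursor of substance P and neurokinin A, had the highest level of the 8 genes. On the transcripts-per-million scale (TPM), which corrects for transcript length and allows genes to be compared, its median was 1959.3 over the 43 cells, and only 16 of the 10802 filtered genes had a higher median. *Tac1* was detected, with a count above 0, in 43 of 43 cells (exact 95% interval 91.8% to 100%) and was above 15 CPM in 41. *Pdyn*, the precursor of dynorphins, was next with a median of 453.9 TPM, was likewise detected in 43 of 43 cells and was above 15 CPM in 41. *Cck*, the cholecystokinin precursor, followed with a median of 47.7 TPM, and *Penk*, the enkephalin precursor, with 20.05 TPM.

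*Penk* was detected in 35 of 43 cells (81.4%, exact 95% interval 66.6% to 91.6%), and *Cck* in 28 (65.1%, 49.1% to 79.0%). Above 15 CPM, *Penk* was found in 21 cells and *Cck* in 19. Their order was the same by mean TPM, with 204.5 for *Cck* and 120.0 for *Penk*, but turned by median CPM, with 10.7 for *Cck* and 13.2 for *Penk*, and in HFD cells their medians of 15.9 TPM for *Cck* and 16.1 TPM for *Penk* were nearly equal. The level order of these neighbours is therefore set by the scale and the group of cells, whereas *Tac1* and *Pdyn* stood first and second under every summary computed, namely the mean TPM, the median CPM and the median TPM of each diet.

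The other 4 precursors had a median of 0 over the 43 cells. *Sst*, the somatostatin precursor, was detected in 21 cells (48.8%, exact 95% interval 33.3% to 64.5%) but was above 15 CPM in only 6, and 13 of its 21 cells held fewer than 10 counts. *Npy*, the neuropeptide Y precursor, was detected in 13 cells and above 15 CPM in 7. *Cartpt* was detected in 13 cells and above 15 CPM in 6. *Vip*, the precursor of vasoactive intestinal peptide, was detected in 6 cells with at most 2 counts in any of them, and 0 of 43 cells were above 15 CPM, which by the exact interval allows a share of cells above that limit of up to 8.22%. Its 7.03 counts in all give no ratio between diets, and whether the cells without a *Vip* count lacked its RNA was not detectable at this depth.

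**Figure D1:**
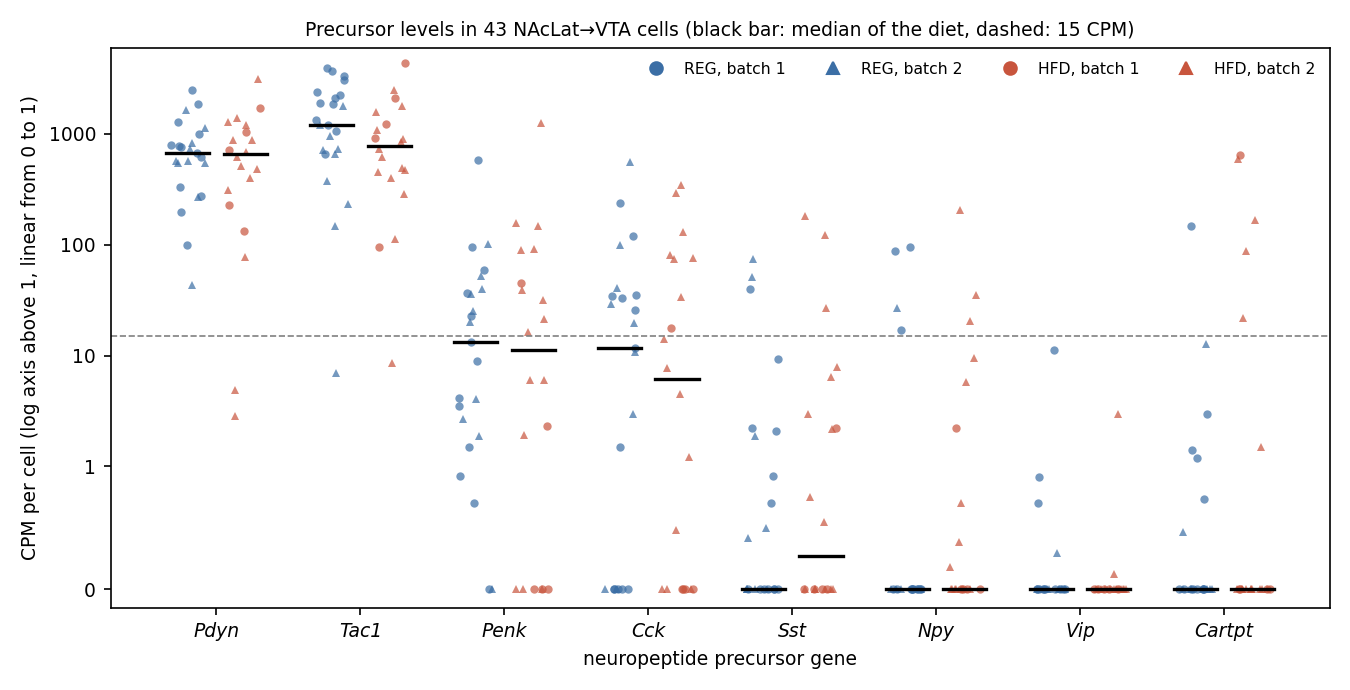
CPM of the 8 precursors in each of the 43 cells, on an axis that is logarithmic above 1 and linear from 0 to 1. Blue marks REG cells, red HFD cells, circles batch 1, triangles batch 2, black bars the median of a diet and the dashed line 15 CPM. *Pdyn* and *Tac1* lie above the line in all but 2 cells each, and the points of both diets overlap for every gene.

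*Pdyn* was at the same mean level in both diets, within a wide spread over cells. The lowest, median and highest CPM were 43.1, 680 and 2475 in REG cells and 2.84, 658 and 3121 in HFD cells. Both ranges overlap almost whole, and the lowest values belong to HFD cell 11 (4.90 CPM) and HFD cell 13 (2.84 CPM). REG cells averaged 785 CPM (SD 585, n = 23 cells) and HFD cells 787 CPM (SD 735, n = 20 cells), and the log2 ratio of the means, HFD over REG, was 0.00. The ratio was −0.16 within batch 1 and 0.21 within batch 2, and leaving out any 1 cell moved it between −0.24 and 0.15. With TMM factors in place of total counts it was 0.41, and with DESeq2 size factors 0.26, where the median of all filtered genes moved up by 0.13 and 0.14.

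*Tac1* was lower in HFD cells over all cells, but not within each batch. Its lowest, median and highest CPM were 6.97, 1215 and 3928 in REG cells and 8.53, 782 and 4405 in HFD cells. The highest cell of all, HFD cell 3, and the lowest, REG cell 19, go against the order of the medians. REG cells averaged 1553 CPM (SD 1151) and HFD cells 1051 CPM (SD 1040), for a log2 ratio of −0.56, which stayed between −0.83 and −0.46 when any 1 cell was left out. Within batch 1 the ratio was −0.34, from means of 2222 and 1753 CPM, and within batch 2 it was 0.26, from 684 and 818 CPM. The mean over all cells of batch 1 was 2091 CPM and that of batch 2 was 764 CPM, and among REG cells alone the log2 ratio of batch 2 over batch 1 was −1.70. Batch thus went with a larger difference in *Tac1* than diet, and most of the HFD cells were in batch 2, the batch with the lower level. What sets the batches apart was not tested.

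**Figure D2:**
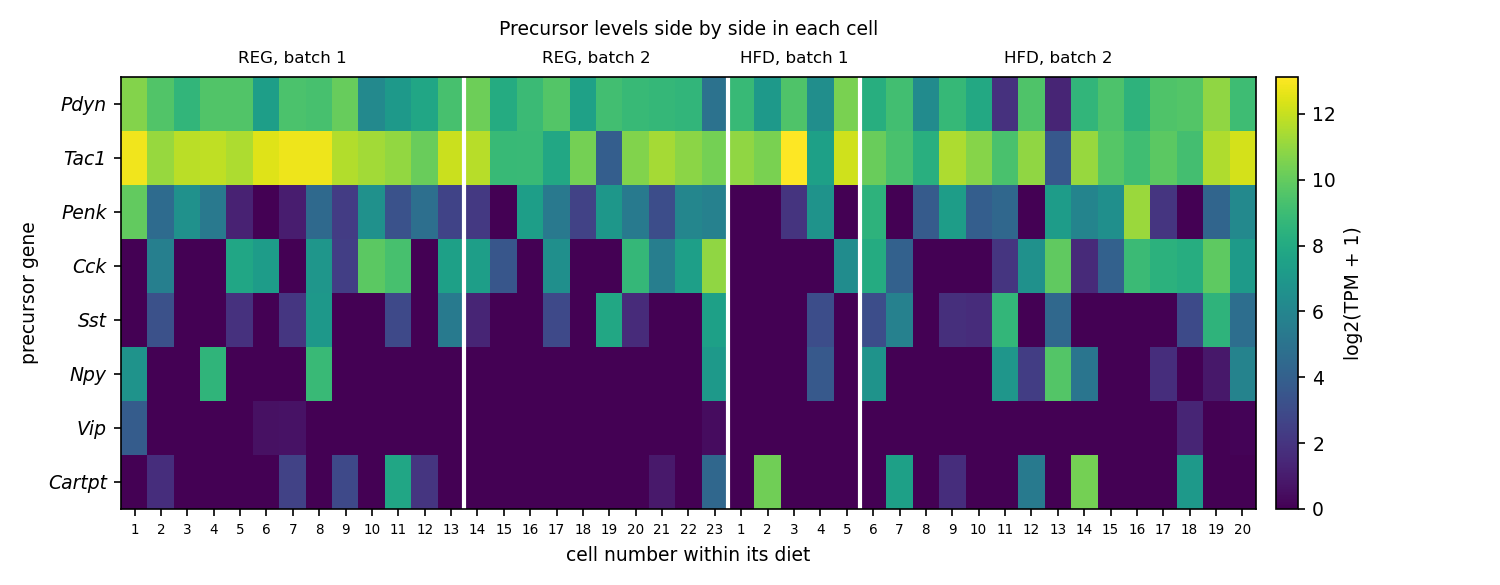
log2(TPM + 1) of the 8 precursors (rows) in each of the 43 cells (columns), ordered by diet and batch and numbered within the diet. *Tac1* and *Pdyn* form bright rows, with *Tac1* brightest in batch 1, and the other genes are bright in scattered cells.

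*Penk* was held by few cells at high level in both diets. The lowest, median and highest CPM were 0, 13.2 and 576 in REG cells and 0, 11.2 and 1254 in HFD cells, so that the medians were close while the highest values differed. REG cell 1 alone carried 52.2% of all *Penk* CPM summed over REG cells, and HFD cell 16 carried 65.7% over HFD cells. REG cells averaged 48.0 CPM (SD 119) and HFD cells 95.5 CPM (SD 277), for a log2 ratio of 0.99. Without HFD cell 16 the ratio was −0.48, and without REG cell 1 it was 1.99. Within batch 1 the ratio was −2.73 and within batch 2 it was 2.14, so the sign was opposite in the 2 batches. Detection was 21 of 23 cells in REG (91.3%, exact 95% interval 72.0% to 98.9%) and 14 of 20 in HFD (70.0%, 45.7% to 88.1%), and the cells above 15 CPM numbered 11 and 10.

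*Cck* had similar means in both diets. Its lowest, median and highest CPM were 0, 11.7 and 555 in REG cells and 0, 6.13 and 345 in HFD cells. Above 15 CPM there were 11 REG and 8 HFD cells with *Cck*, and at any count 15 and 13. The means of 54.6 CPM (SD 122) and 53.9 CPM (SD 98.0) gave a log2 ratio of −0.02. Leaving out REG cell 23, the highest cell, moved it to 0.76, and leaving out HFD cell 13 moved it to −0.50. In batch 1 only 1 of 5 HFD cells had *Cck* counts and the ratio was −3.43, and in batch 2 it was −0.10. The sign also depended on the scaling, with 0.35 under TMM factors and 0.44 under DESeq2 size factors.

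*Sst* had 3 cells above 15 CPM in each diet. Its lowest, median and highest CPM were 0, 0 and 73.7 in REG cells and 0, 0.27 and 180 in HFD cells, and the 6 cells above the limit were REG cells 8, 19 and 23 (39.5, 73.7 and 51.6 CPM) and HFD cells 7, 11 and 19 (27.1, 180 and 124 CPM). The value of HFD cell 7 rests on 7 counts. The means were 7.95 CPM (SD 19.4) and 17.7 CPM (SD 47.2), a log2 ratio of 1.15. It fell to 0.20 without HFD cell 11 and was −3.24 in batch 1, where the 5 HFD cells held 6 counts in all, and 0.87 in batch 2.

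*Npy* was detected in 4 of 23 REG cells (17.4%, exact 95% interval 4.95% to 38.8%) and 9 of 20 HFD cells (45.0%, 23.1% to 68.5%), but above 15 CPM the numbers were 4 and 3. The median was 0 CPM in both diets, and the highest values were 96.0 CPM in REG cell 8 and 206 CPM in HFD cell 13. HFD cell 13 alone carried 73.4% of the *Npy* CPM summed over HFD cells. The means of 9.88 CPM (SD 26.7) and 14.05 CPM (SD 46.1) gave a log2 ratio of 0.51, which was −1.33 without HFD cell 13 and 1.24 without REG cell 8. Batch 1 alone, where the 5 HFD cells held 6 *Npy* counts in all, gave −5.11 and batch 2 alone 2.80.

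*Cartpt* had the highest ratio of the 7 filtered genes. It was above 15 CPM in 5 of 20 HFD cells (25%, exact 95% interval 8.66% to 49.1%) and 1 of 23 REG cells (4.35%, 0.11% to 21.9%), while detection at any count was 6 of 20 (30%) and 7 of 23 (30.4%). The HFD cells above the limit were cell 2 (643 CPM), cell 14 (595 CPM), cell 7 (167 CPM), cell 18 (88.2 CPM) and cell 12 (21.7 CPM), and the REG cell was cell 11 (148 CPM). Of the other 15 HFD cells, 14 had no *Cartpt* count, and the median was 0 CPM in both diets, so the groups overlap and differ in a handful of cells. REG cells averaged 7.30 CPM (SD 30.9) and HFD cells 75.8 CPM (SD 190), for a log2 ratio of 3.38. HFD cells 2 and 14 together carried 81.7% of the *Cartpt* CPM summed over HFD cells.

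The sign of the *Cartpt* ratio did not change in the alternatives computed. It was 3.43 within batch 1, where it rests on 1 HFD cell against 1 REG cell above 15 CPM, and 5.48 within batch 2, where 4 of 15 HFD cells and 0 of 10 REG cells were above 15 CPM and the REG cells held 44 counts in all. Leaving out any 1 cell gave 2.65 (without HFD cell 2) to 6.43 (without REG cell 11). The size of the ratio is therefore poorly determined, and how many mice the 5 HFD cells came from is not given in the sources used here.

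Among all 10802 filtered genes, the log2 ratio was above 1 in 9.04% and below −1 in 14.3%, and its median was −0.13, with the 5th and 95th percentile at −1.65 and 1.35. Of the 7 precursors, 2 were above 1 (*Sst* and *Cartpt*) and 0 were below −1, and their median was 0.51. *Cartpt* stood at percentile 99.8 of the filtered genes, *Sst* at 93.1 and *Penk* at 90.8. The filter asks for at least 5 cells above 15 CPM, and *Cartpt* had 5 such HFD cells and 1 such REG cell. It thus entered the filtered genes through the diet in which it was higher, and its count and percentile here are not independent of the filter. The sign was the same in batch 1, batch 2 and all cells for 2 of the 7 precursors (*Cck* and *Cartpt*), against 47% of all filtered genes. It turned when 1 cell was left out for 4 of the 7 (*Pdyn*, *Penk*, *Cck* and *Npy*), against 38.9% of all filtered genes.

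**Figure D3:**
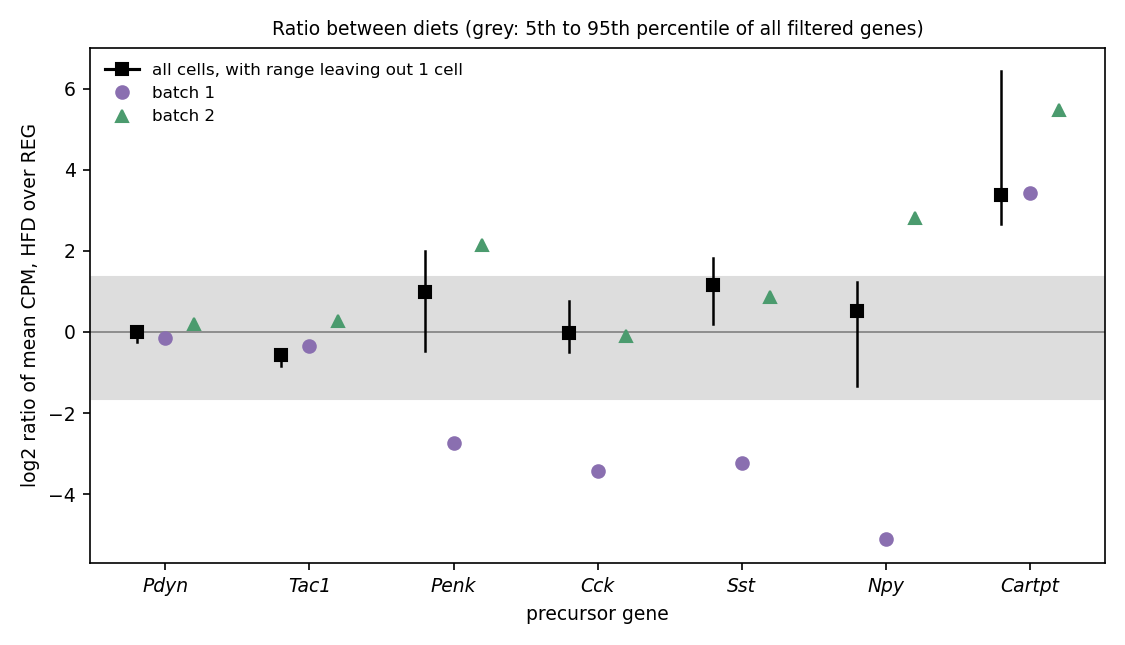
log2 ratio of mean CPM, HFD over REG, for the 7 precursors that passed the filter. Black squares are all cells with the range obtained by leaving out 1 cell, purple circles batch 1, green triangles batch 2 and the grey band the 5th to 95th percentile of all filtered genes (−1.65 to 1.35). *Penk*, *Sst* and *Npy* lie below 0 in batch 1 and above it in batch 2, and *Cartpt* lies above 0 throughout.

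Within single cells, *Tac1* exceeded *Pdyn* on the TPM scale in 39 of 43 cells, and the ratio of *Tac1* to *Pdyn* had a median of 4.44 over all cells. The 4 exceptions were REG cells 16, 17 and 19 and HFD cell 18, all of batch 2. *Tac1* was the most abundant of the 8 precursors in 19 REG and 17 HFD cells, *Pdyn* in 3 and 1, *Cck* in 1 of each diet and *Penk* in 1 HFD cell. *Pdyn* and *Tac1* together made up a median of 91.5% of the summed TPM of the 8 genes. Split by diet, this median share was 94.4% for REG and 82.6% for HFD, where single cells ranged from 0.653% to 100%. The order of the diets was opposite in the batches. Batch 1 gave 95.8% for REG against 98.7% for HFD, while batch 2 gave 89.3% against 82.1%. Batch 1 as a whole stood at 96.5%, and batch 2, which held most of the HFD cells, at 85.5%. *Pdyn* and *Tac1* were both above 15 CPM in 40 cells, and every cell had at least 1 of them except HFD cell 13.

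Across the 43 cells, *Pdyn* and *Tac1* rose together, with a Spearman rho of 0.42 on TPM. Within batch 1 rho was 0.54 and within batch 2 it was 0.25. REG cells alone gave 0.35 and HFD cells alone 0.56, and rho was 0.36 without HFD cells 11 and 13. The cells share mice, batches and depth, so this is a description only. For the other pairs of filtered precursors rho lay between −0.29 and 0.34, in counts that are mostly sparse, and no relation is read from these values.

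Cells usually held more precursors than this pair. The number of the 8 genes above 15 CPM in a cell had a median of 3, and 10 cells had 2, 16 had 3, 13 had 4, 3 had 5 and 1 had 6. The median was 3 in both diets. In 10 cells *Pdyn* and *Tac1* were the only ones of the 8 above the limit, and 33 cells had another. *Nts*, the neurotensin precursor, was above 15 CPM in 33 cells, and *Pdyn*, *Tac1* and *Nts* were all above it in 32. *Nts* was above the limit in 13 of the 21 *Penk* cells, 16 of the 19 *Cck* cells and 5 of the 6 *Cartpt* cells.

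Most cells with the indirect-pathway precursor *Penk* also held the direct-pathway precursors, which were found in nearly every cell. Of the 21 cells with *Penk* above 15 CPM, 19 also had *Pdyn*, 19 had *Tac1*, 18 had all 3 and 18 had *Drd1* above that limit. Over all 43 cells the numbers were 41 for *Pdyn*, 41 for *Tac1* and 40 for *Drd1*. The 2 cells without *Pdyn* above the limit (HFD cells 11 and 13) both had *Penk* above it. So did the 2 cells without *Tac1* (REG cell 19 and HFD cell 13). The indirect-pathway genes *Drd2*, *Adora2a* and *Gpr6* were above 15 CPM in 3, 4 and 3 cells, and every one of those cells was among the 21. HFD cell 16, with the most *Penk* (1254 CPM), had *Adora2a* at 116 CPM and *Drd1* at 358 CPM, with *Drd2* at 9.82 CPM and no *Gpr6* count. REG cell 16 had *Penk* at 51.9 CPM and *Gpr6* at 208 CPM with *Drd1* at 0.72 CPM and *Pdyn* at 729 CPM. It had *Adora2a* at 73.6 CPM and no *Drd2* count. The 5 indirect-pathway markers in the tables summed to a median of 1.07 CPM in REG cells (0 to 301) and 2.19 CPM in HFD cells (0 to 197), and the 6 direct-pathway markers to 456 CPM (39.5 to 1008) and 408 CPM (68.1 to 1106). Whether RNA of neighbouring cells entered the pipette was not tested.

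*Penk* and *Cck* were both above 15 CPM in 10 cells, and *Penk* and *Cartpt* in 1 (HFD cell 14). The 6 *Cartpt* cells all had *Pdyn*, *Tac1* and *Drd1* above 15 CPM, in HFD cell 2 with *Drd1* only just over the limit at 15.2 CPM. No cell had *Cartpt* (6 cells) and *Npy* (7 cells) above 15 CPM together, while 2 cells had both at 10 or more counts and 3 at a count above 0. With so few cells of each gene, no separation is read from this.

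*Sst* and *Npy* were both above 15 CPM in 3 cells, REG cell 8, REG cell 23 and HFD cell 11. *Nos1*, the neuronal nitric oxide synthase gene that marks the interneurons with both peptides, passed the limit in REG cell 23 and HFD cell 11, at 92.8 and 245 CPM. Among all 43 cells, *Nos1* was above 15 CPM in 6 and detected in 29. *Chodl* and *Crhbp*, other markers of that class, were above 15 CPM in 0 of the 43 cells, although *Chodl* was detected in 17 cells, with 4 of the 6 *Sst* cells among them. *Tacr1*, the remaining marker listed, was above 15 CPM in 3 cells, with 1 of the 6 *Sst* cells and 1 of the 7 *Npy* cells among them. REG cell 8 had *Tac1* at 3928 CPM and *Pdyn* at 1003 CPM, which are among the higher values of REG cells. HFD cell 11 had *Sst* at 180 CPM, *Npy* at 35.5 CPM and *Nos1* at 245 CPM together with *Tac1* at 471 CPM, *Drd1* at 132 CPM and *Pdyn* at 4.90 CPM.

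Of all cells, REG cell 23 had the most precursors, with all 8 detected and 6 above 15 CPM. It had the highest *Cck* (555 CPM, 1989 TPM) together with *Tac1* at 716 CPM, *Sst* at 51.6 CPM, *Pdyn* at 43.1 CPM, *Penk* at 36.0 CPM and *Npy* at 26.7 CPM. HFD cell 13 was the one cell with neither *Pdyn* nor *Tac1* above 15 CPM, at 2.84 and 8.53 CPM, and had *Cck* at 345 CPM, *Npy* at 206 CPM, *Penk* at 149 CPM and *Kit* at 208 CPM. *Kit* marks a class of interneurons in the striatum. Of the parvalbumin interneuron markers listed beside *Kit*, *Pvalb* was at 5.69 CPM in HFD cell 13 and *Pthlh* had no count there. *Drd1* in that cell was at 86.0 CPM. The other cell with *Kit* above 15 CPM, HFD cell 10 (138 CPM), had *Tac1* at 839 CPM and *Pdyn* at 312 CPM. Without HFD cells 11 and 13, the log2 ratio between diets was 0.21 for *Sst* in place of 1.15 and −2.18 for *Npy* in place of 0.51, while that of *Cartpt* was 3.53 and that of *Penk* was 1.01.

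**Figure D4:**
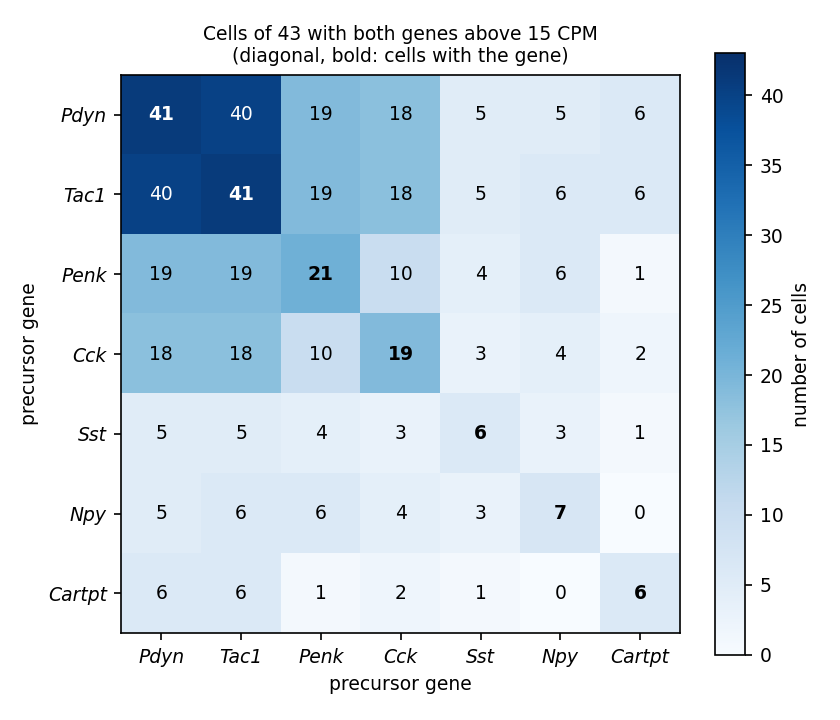
Number of the 43 cells in which both genes of a pair were above 15 CPM, for the 7 precursors with any such cell. The bold diagonal gives the cells with each gene, from 41 for *Pdyn* and *Tac1* to 6 for *Sst* and *Cartpt*, and 40 cells held *Pdyn* and *Tac1* together.

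Genes of other peptides were mostly absent or rare. Of 40 other precursor genes, 11 had no count in any cell and 4 passed the filter. Of these 4, the ratio was above 1 for *Nmb*, the neuromedin B precursor (1.89), and below −1 for *Nts* (−1.51), *Nucb2*, the nesfatin precursor (−2.21), and *Nppc*, the C-type natriuretic peptide precursor (−1.61). Among all filtered genes, 9.04% were above 1 and 14.3% below −1. The sign was the same in both batches for *Nmb* (2.90 and 1.54), *Nts* (−1.68 and −0.83) and *Nucb2* (−0.26 and −3.48), and not for *Nppc* (−8.12 and 0.68). Leaving out any 1 cell gave 0.71 to 2.56 for *Nmb*, −1.99 to −1.29 for *Nts*, −3.02 to −1.83 for *Nucb2* and −3.61 to −1.14 for *Nppc*. *Nppc* was above 15 CPM in 5 cells, the fewest that the filter allows.

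Receptors of the peptides made from the 8 precursors were measured in the same cells. Of 20 receptor genes, 6 passed the filter, and among them 1 was above 1 and 1 below −1, against 9.04% and 14.3% of all filtered genes. *Cckbr*, a cholecystokinin receptor gene, averaged 12.1 CPM over REG and 38.7 CPM over HFD cells, for a log2 ratio of 1.68, with 2.29 in batch 1 and 1.54 in batch 2. *Npy1r*, the Y1 receptor gene of neuropeptide Y, was at 55.2 and 9.95 CPM, a log2 ratio of −2.47, with −2.05 and −3.04 in the batches. Leaving out any 1 cell kept the *Npy1r* ratio between −2.82 and −2.18 and the *Cckbr* ratio between 0.95 and 2.19. *Oprk1*, the gene of the receptor for dynorphin, was singled out after its values were seen and had a ratio of 0.92, with 1.49 and 0.73 in the batches.

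Genes of peptide processing ranged from ones found in every cell to ones found in few. Of 13 genes of peptide processing and dense core vesicles, 12 passed the filter, 0 of them past a ratio of 1 in either direction, with a median ratio of −0.04. *Cpe*, which encodes carboxypeptidase E, had a median of 191 TPM, *Scg2*, for secretogranin II, 185 TPM, *Scg5*, for the chaperone of prohormone convertase 2, 179 TPM and *Pcsk1n*, for an inhibitor of prohormone convertase 1, 102 TPM. Their log2 ratios were 0.10, 0.38, 0.10 and −0.12. *Pcsk1*, the gene of prohormone convertase 1 itself, was detected in 15 cells and did not pass the filter, while *Pcsk2*, the gene of prohormone convertase 2, was detected in 43. *Scg3* was detected in 33 cells and *Cadps2* in 22, and these 4 genes were singled out after their values were seen.

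The genes whose TPM pattern over the 43 cells was nearest to each precursor were read as a description. For *Tac1* they were *Creld1*, *Usp28* and *Csmd3*, with a Spearman rho of 0.63 for each, where 5% of filtered genes exceeded 0.39. For *Penk* they were *Clic6* (0.63), *D10Jhu81e* (0.59) and *Apoe* (0.57), where the same limit was 0.27. For *Pdyn* they included *Slc22a17* (0.56) and *Rasgrf2* (0.54), against a limit of 0.29. None of the 8 precursors was among these nearest genes.

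For *Cck* the nearest genes were *Klhdc3* (0.63), *Car2* (0.61) and *Tubb5* (0.60), against 0.30. For *Npy* they were *Naa60* (0.62), *Vti1b* (0.58) and *Gnas* (0.58), against 0.27, for *Sst* they were *Sez6l* (0.56), *Jun* (0.53) and *Elavl4* (0.53), against 0.28, and for *Cartpt* they were *Pphln1* (0.57), *Gatad1* (0.55) and *Ccne1* (0.54), against 0.27. In the sparse genes the ranks rest on the few cells with counts.

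Markers of other cells were also found in these libraries, at levels that varied widely over cells. Of 7 microglia markers, 5 passed the filter and 2 of them were above a ratio of 1, against 9.04% of all filtered genes. The summed CPM of the 7 markers ranged from 0 to 1245 in REG cells (median 25.9) and from 1.14 to 1389 in HFD cells (median 76.6). The 4 markers of *Sst* and *Npy* interneurons summed to 0 to 129 CPM in REG cells (median 5.10) and 0 to 308 CPM in HFD cells (median 4.36). The 3 parvalbumin interneuron markers summed to 0 to 39.8 CPM in REG cells (median 4.48) and 0 to 214 CPM in HFD cells (median 0.14). The 3 glutamatergic markers stayed at or below 66.9 CPM in every cell. The part of such RNA in the values of the precursors was not tested.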

How the data were processed

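Reads were assigned to mouse transcripts (GRCm38) by the authors with kallisto, and they left out cells with few reads or genes. They deposited estimated counts per gene without normalization, and TPM, scaled within each cell by the authors, for the same 35825 genes. Groups and batches follow the labels. Each estimated count was scaled to 1000000 counts per cell (CPM), and the log2 ratio compares the mean CPM over HFD cells with the mean over REG cells, with no pseudocount. Estimated counts were rounded for thinning (150000 counts per cell, seed 7) and for DESeq2. Shares of cells carry exact (Clopper-Pearson) 95% intervals. The ratio was tested on simulated data, with changes planted only in genes of higher mean level. That test does not cover sparse genes whose level rests on few cells, such as *Sst*, *Npy* and *Cartpt*. The 8 genes, the other gene lists and the alternatives were chosen with earlier results of these data known. The study fitted edgeR over cells, which was not done here because cells of 1 mouse are not replicates. Named from the lists were genes past a log2 ratio of 1 and those with a median above 100 TPM, and the 3 genes nearest to each filtered precursor by Spearman rho. The gene nearest to *Pdyn* is not reported here. Leaving out HFD cells 11 and 13, which have *Pdyn* below 15 CPM, and leaving out the cell that holds most of a gene were added after the data were seen. Alternatives were TPM, TMM factors (edgeR), size factors (DESeq2), summed counts, totals that omit *Lars2* and *Gm19220*, mean log2 values with a pseudocount of 1, each batch, thinning and leaving out each cell. Coordinates are from GENCODE and promoters from RefSeq. Software was edgeR 4.0.16 and DESeq2 1.42.0 in R 4.3.3, and scipy 1.17.1, pandas 2.3.3 and numpy 2.4.6 in Python 3.11.15.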

Additional observations from a re-analysis of the deposited data

How the results depend on the processing

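The mean was higher in HFD cells for 5 of the 7 filtered precursors. The smallest of these 5 ratios was that of *Pdyn* (0.00), and 57.4% of all filtered genes had a lower ratio than *Pdyn*. The number with a higher mean was 3 on mean log2(CPM + 1) values, 1 in batch 1, 2 for the mean of both batches and 4 to 6 when each cell was left out in turn. In batch 2 the mean was higher in HFD cells for every filtered precursor except *Cck*. The number past an absolute log2 ratio of 1 was 2. It was 1 with totals without *Lars2* and *Gm19220*, 1 on mean log2(CPM + 1) values, 5 in batch 1, 4 for the mean of both batches and 1 to 3 when each cell was left out in turn. The *Sst* ratio of 1.15 turned to −3.24 in batch 1 and −1.18 for the mean of both batches. The *Pdyn* ratio of 0.00 was −0.58 as a difference between mean log2(CPM + 1) values, in which the 2 HFD cells with little *Pdyn* weigh more. Over the alternatives that change 1 choice at a time, the *Cartpt* ratio stayed between 1.19, as a difference between mean log2(CPM + 1) values, and 6.43, without REG cell 11. Among all genes, 2518 were past an absolute log2 ratio of 1, with 7524 without a filter, 1486 with a filter at 10 cells and 4559 in batch 1. The median number of precursors per cell rose from 3 to 5 when any count above 0 was taken. Cells with both *Sst* and *Npy* numbered 3 above 15 CPM, 8 at a count above 0 and 5 after thinning. Where the cause of a change is not named, the cause was not tested. No paired analysis was possible because no label ties a REG cell to an HFD cell or names a mouse. Thinning to 150000 counts per cell gave ratios of 0.90 for *Penk*, 1.68 for *Sst*, 0.41 for *Npy* and 3.51 for *Cartpt*. The few cells with high values of these genes limit what their means can show, and *Vip* is limited by depth.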

Other observations

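Some cells, chosen after their values were seen, held unusual combinations of precursors and other genes. REG cell 10 had *Tac1* at 1336 CPM and *Cck* at 236 CPM with *Chat*, the gene of the acetylcholine-producing enzyme, at 131 CPM and *Drd1* at 2.56 CPM. The other cholinergic interneuron markers listed, *Slc5a7*, *Slc18a3* and *Lhx8*, had no count in that cell. REG cell 19 had *Pdyn* at 824 CPM and *Nts* at 721 CPM with *Tac1* at 6.97 CPM, *Penk* at 101 CPM, *Sst* at 73.7 CPM and *Drd1* at 4.98 CPM. HFD cell 19 had the highest *Pdyn* of all cells, at 3121 CPM, with *Cck* at 292 CPM and *Sst* at 124 CPM. It had *Cnr1*, the gene of a cannabinoid receptor, at 793 CPM. *Calb2*, *Htr3a* and *Prox1*, listed beside *Cnr1* for *Vip* and *Cck* interneurons, had no count in HFD cell 19. After thinning to equal depth HFD cell 19 had the fewest genes detected, 3502 against a median of 7670 over all cells. Its TMM factor was 0.54. Whether this bears on its high CPM values was not tested.

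Precursor genes outside the 8 reached high levels in single cells although they failed the filter, and these were likewise picked after their values were seen. *Nppa*, the atrial natriuretic peptide precursor, reached 1193 TPM and was above 15 CPM in 2 cells. *Crh*, the precursor of corticotropin-releasing hormone, reached 453 TPM and was above 15 CPM in 3 cells. *Rln3*, the relaxin-3 precursor, was detected in 1 cell, at 256 TPM.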
